A study of Mus musculus with 6 samples.

Results

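Left ventricles labelled PKI carried more RNA for troponin C and less for cardiac troponin I than left ventricles labelled WT, while RNA for cardiac troponin T, as deposited, differed by less than the spread between libraries. As deposited, Tnnc1 was 1.48-fold higher and Tnni3 1.21-fold lower in libraries labelled PKI. The troponin C to troponin I ratio averaged 1.61 in libraries labelled PKI against 0.901 in WT. The calls for Tnnc1 and Tnni3 were also made after scaling the libraries by the median of ratios. After that scaling Tnnt2, cardiac troponin T, was called lower as well. Of the tropomyosins, the minor genes Tpm2, Tpm3 and Tpm4 were called higher as deposited and not after scaling. Tpm1, which held 94.6% to 96.4% of the tropomyosin FPKM in every library, was not called as deposited and was called lower after scaling. The genes described are the 9 troponin and tropomyosin genes Tnnc1, Tnni3, Tnni1, Tnnt2, Tnnt1, Tpm1, Tpm2, Tpm3 and Tpm4. They were taken by symbol from a gene table of 52550 rows, and each symbol matched 1 row. The rule used no values, but the genes were chosen with earlier results of these data known. The groups were 3 libraries labelled as PGC1alpha overexpressed (PKI) and 3 labelled wild-type (WT), all from the left ventricle of C57BL/6J mice at 12 months of age. The labels do not say what drives the overexpression or in which cells. Nor do they say whether each library came from its own animal, and the p-values cover the variation among these libraries alone, which may be technical.

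Contraction of heart muscle is switched on by calcium at the thin filament. Tropomyosin, a coiled coil lying along actin, blocks the sites where myosin binds, and the troponin complex holds it there: troponin C binds calcium, troponin I inhibits, and troponin T fastens the complex to tropomyosin. Each subunit has isoforms from separate genes. The adult ventricle uses Tnnc1, which slow skeletal muscle shares, together with the cardiac genes Tnni3 and Tnnt2, while Tnni1, the slow skeletal troponin I, is the form of the fetal heart and Tnnt1 is the slow skeletal troponin T. In rodents, Tpm1 is the main tropomyosin of the adult heart. Tpm2 is known from skeletal and smooth muscle, Tpm3 from slow skeletal muscle and non-muscle cells, and Tpm4 from non-muscle cells. Tpm1 to Tpm4 each make several proteins through alternative promoters and exons, and a value per gene adds these together.

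Ppargc1a, which encodes the coactivator PGC-1α, was not higher in libraries labelled PKI, at 11.6, 11.8 and 11.4 FPKM there and 14.2, 12.8 and 12.4 FPKM in WT (FPKM is a fragment count scaled by transcript length and by mapped fragments). Its log2 change of −0.16 (SE 0.07) did not pass as deposited (limma, adjusted p = 0.0967) and was called lower after the scaling described next (−0.42, adjusted p = 0.00663), so directions are given for libraries as labelled. The number of fragments behind the values was estimated at 19600000 to 20200000 per library labelled PKI and 18000000 to 21700000 per WT library. Genes were called at an adjusted p under 0.05 (limma on log2(FPKM + 1), Benjamini-Hochberg over the 9907 genes averaging 1 FPKM or more). The distribution was shifted upward in libraries labelled PKI, with a median log2 change of 0.21 over all tested genes, which median-of-ratios scaling moved to −0.0011. Scaling to the total without mitochondrial transcripts moved it to 0.046. Transcripts of the mitochondrial genome and their nuclear copies held 78.0% to 78.2% of the FPKM in libraries labelled PKI and 81.8% to 82.3% in WT. The part of this difference in the shift was not tested. Scaled values therefore stand beside the deposited ones where they change a call. Of 8 cardiomyocyte markers all were detected, the lowest being Ttn with a mean of 16.2 FPKM, and their sum was 5803 to 6174 FPKM in libraries labelled PKI and 5883 to 6235 in WT. As deposited 2 rose and 2 fell, and after scaling 0 were higher and 4 lower. Across all tested genes 36.4% were called higher and 2.96% lower as deposited, and 8.54% and 8.23% after scaling.

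Of the 9 genes, 8 reached the level for testing. As deposited 4 were called higher, against 36.4% of all tested genes, and 1 lower, against 2.96%. After scaling 1 was called higher and 3 lower, against 8.54% and 8.23% of tested genes. The call for Tnnc1 (higher) and that for Tnni3 (lower) were made in both. The 9 genes thus did not all differ in the same direction.

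**Figure D1:**
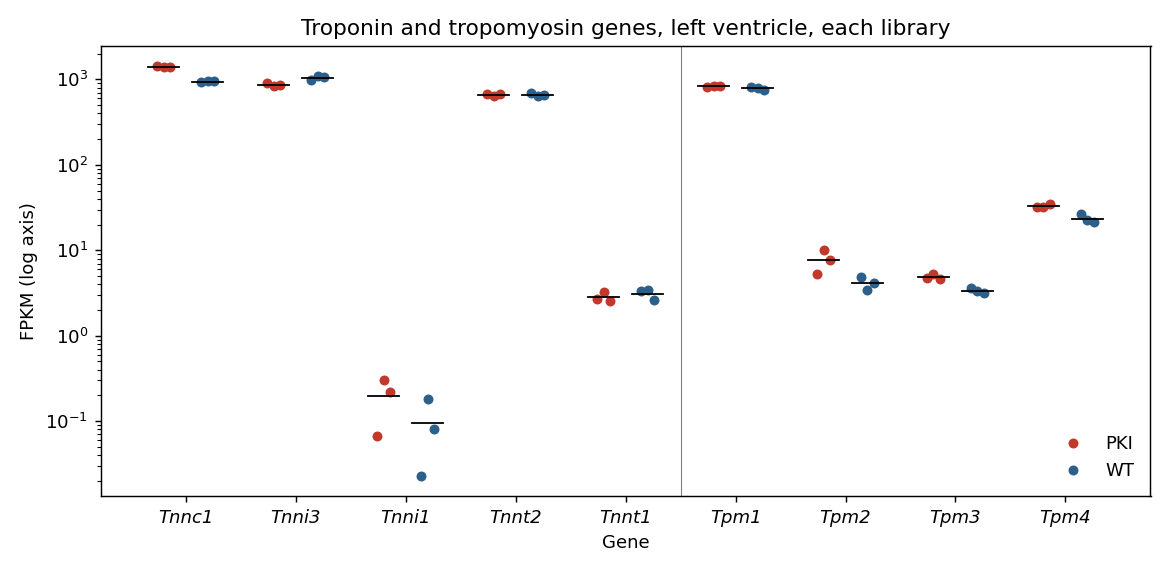
FPKM of each of the 9 genes in every library on a log axis, libraries labelled PKI (red, left of each pair) and WT (blue, right), with the group mean as a bar. Tnnc1, Tnni3, Tpm1 and Tnnt2 lie between 643 and 1418 FPKM, Tpm4 between 21.3 and 34.8, Tpm2, Tpm3 and Tnnt1 between 2.53 and 10.02, and Tnni1 at 0.301 or less.

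The adult cardiac isoforms were among the most abundant transcripts of the tissue. Averaged over the 6 libraries and leaving out transcripts of the mitochondrial genome and their nuclear copies, Tnnc1 ranked 9th of all genes by FPKM, Tnni3 11th, Tpm1 15th and Tnnt2 18th. The order of levels differed between the groups. In libraries labelled PKI it ran from Tnnc1 (mean 1395 FPKM) through Tnni3 (866) and Tpm1 (829) to Tnnt2 (664), and the values of Tnni3 and Tpm1 overlapped. In WT it ran from Tnni3 (1049) through Tnnc1 (943) and Tpm1 (784) to Tnnt2 (665), and none of these neighbours overlapped. Below them came Tpm4, Tpm2, Tpm3, Tnnt1 and Tnni1 in both groups. In WT the values of Tpm2 overlapped those of Tpm3, and those of Tpm3 overlapped those of Tnnt1.

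Tnnc1 (ENSMUSG00000091898, chromosome 14: 31208312 to 31211729, plus strand, GRCm38), the calcium sensor of the complex, had 1418, 1387 and 1379 FPKM in libraries labelled PKI, against 939, 945 and 946 FPKM in WT. Every library labelled PKI lay above every WT library, and the spread within a group was small, at 1.48% of the mean in libraries labelled PKI and 0.379% in WT. With so few libraries the spread itself is poorly estimated. The log2 change was 0.56 (SE 0.04, 95% interval 0.47 to 0.65, adjusted p = 0.000436), higher than that of 90.8% of tested genes. After scaling it was 0.29 (adjusted p = 0.00530). The gene lies across the oppositely oriented gene Nisch, which was at 5.81 to 6.45 FPKM in libraries labelled PKI and 4.34 to 4.93 FPKM in WT. The TruSeq RNA kit named in the labels does not mark strand, so reads of these genes cannot be told apart where they overlap.

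Tnni3 (ENSMUSG00000035458, chromosome 7: 4518305 to 4524229, minus strand), the inhibitory subunit of the adult heart and a target of protein kinase A, had 896, 839 and 863 FPKM in libraries labelled PKI, against 987, 1081 and 1079 FPKM in WT. The groups did not overlap, with the libraries labelled PKI lower. The log2 change was −0.27 (SE 0.05, 95% interval −0.40 to −0.15, adjusted p = 0.00915), and 3.51% of tested genes had a lower one. After scaling it was −0.55 (adjusted p = 0.00197). Tnni3 overlaps Dnaaf3 on the same strand, which was at 1.11 to 2.06 FPKM in libraries labelled PKI and 1.45 to 2.03 FPKM in WT.

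Tnnt2 (ENSMUSG00000026414, chromosome 1: 135836354 to 135852260, plus strand), which anchors the cardiac complex on tropomyosin, had 667, 643 and 680 FPKM in libraries labelled PKI, against 700, 644 and 651 FPKM in WT. The groups overlapped throughout. Its log2 change was −0.0014 as deposited (95% interval −0.12 to 0.12, adjusted p = 0.985), below the median of all genes, and after scaling it was called lower (−0.27, adjusted p = 0.0140). Alternative splicing of Tnnt2, which separates fetal from adult troponin T, cannot be seen in a value per gene.

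**Figure D2:**
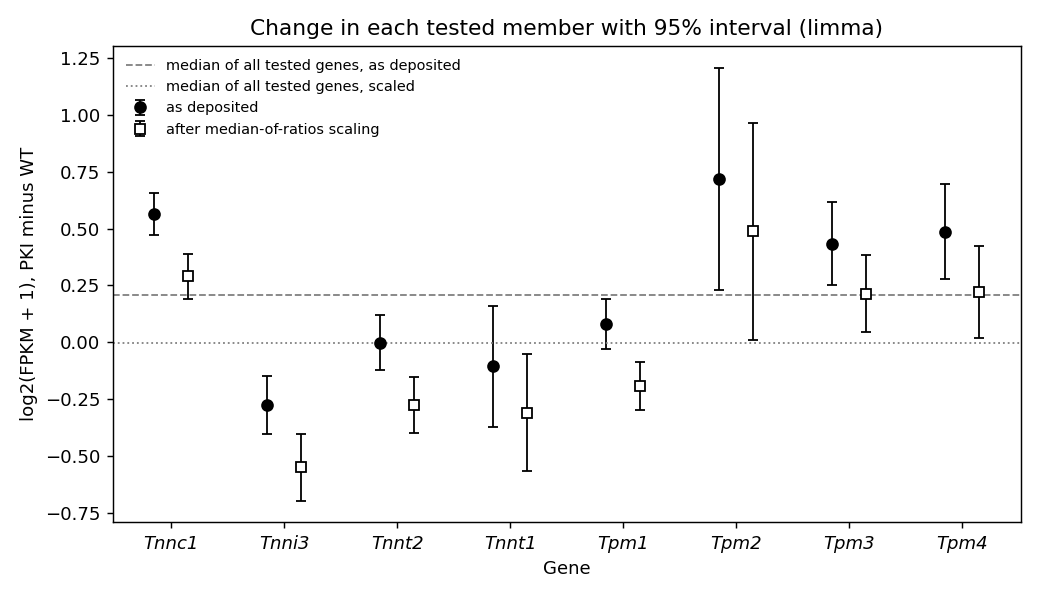
Difference in log2(FPKM + 1) between libraries labelled PKI and WT for the 8 tested genes, with 95% intervals from limma, as deposited (filled circles) and after median-of-ratios scaling (open squares). The dashed and dotted lines are the medians of all tested genes, 0.21 as deposited and −0.0011 after scaling. Tnnc1 lies above and Tnni3 below the median in both, while Tpm1 is at 0.08 as deposited and −0.19 after scaling.

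The start regions of these 3 genes are shown because their products assemble in equal numbers, while their RNA did not change together. Tnnc1 was called higher and Tnni3 lower, and Tnnt2 was not called as deposited. Each is the sequence from 250 bases before to 50 after the start site in RefSeq's table (GRCm38.p6), 5′ to 3′ on the strand of the gene, and capitals mark the motifs searched, on either strand. AAGGTCA is the core bound by oestrogen-related receptors, partners of PGC-1α. AGATAA is bound by factors of the GATA family. The muscle element MCAT, bound by TEAD factors, was searched as CATTCC. For the box at core promoters the letters were TATAAA, and the variant TATATA was searched separately. E-boxes, CANNTG, were searched as well and are not in capitals.
Tnnc1, chr14:31208062-31208361, plus strand: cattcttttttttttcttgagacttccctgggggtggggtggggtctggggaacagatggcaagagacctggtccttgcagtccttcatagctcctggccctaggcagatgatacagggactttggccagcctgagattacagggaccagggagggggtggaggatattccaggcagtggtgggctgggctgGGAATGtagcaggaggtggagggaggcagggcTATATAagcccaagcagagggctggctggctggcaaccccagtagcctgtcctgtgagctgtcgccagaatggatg
Tnni3, chr7:4522479-4522778, minus strand: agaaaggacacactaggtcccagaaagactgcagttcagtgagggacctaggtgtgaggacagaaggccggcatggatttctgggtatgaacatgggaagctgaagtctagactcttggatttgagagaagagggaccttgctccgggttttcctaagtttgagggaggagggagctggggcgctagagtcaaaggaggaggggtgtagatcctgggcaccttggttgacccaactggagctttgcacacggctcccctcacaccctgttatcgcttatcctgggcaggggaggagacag
Tnnt2, chr1:135836084-135836383, plus strand: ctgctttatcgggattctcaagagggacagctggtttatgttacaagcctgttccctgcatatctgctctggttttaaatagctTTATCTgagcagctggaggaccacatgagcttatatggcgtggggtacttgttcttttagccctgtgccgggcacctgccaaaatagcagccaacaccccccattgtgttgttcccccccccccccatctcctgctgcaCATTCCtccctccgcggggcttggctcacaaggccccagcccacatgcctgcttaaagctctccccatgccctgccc
The Tnnc1 window held the MCAT letters on the minus strand, first base at position −58 from the start site, and TATATA at −26. The Tnnt2 window held AGATAA on the minus strand at −166 and CATTCC at −27. RefSeq's table has another Tnnt2 window, from a start further downstream, which held neither. The Tnni3 window held none of the 5 capitalised motifs. Each of the 3 windows held at least 1 E-box. Over the whole table of 32851 windows, CATTCC occurs in 14.7%, AGATAA in 11.2%, TATAAA in 13.6%, TATATA in 5.67%, AAGGTCA in 4.72% and CANNTG in 72.3%. All 9 genes matched the table, and the 1 window among theirs with AAGGTCA was that of Tpm3 (position −228). A match describes letters in a short window and says nothing of binding.

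Ratios between genes of one library do not depend on a single scaling factor per library. Quantile normalisation can move them, and no ratios were computed under it. FPKM of troponin C over summed FPKM of troponin I (Tnni3 and Tnni1) was 1.58, 1.65 and 1.60 in libraries labelled PKI, against 0.952, 0.874 and 0.877 in WT. All libraries labelled PKI were above 1 and all WT libraries below it. The mean was 1.61 ± 0.0367 in libraries labelled PKI and 0.901 ± 0.0442 in WT (SD, n = 3 each), a ratio of means of 1.79. The exact two-sided permutation test over the 20 arrangements gave p = 0.1 for the log2 ratio, the smallest that 3 against 3 libraries allow, so no ratio or share here can reach 0.05.

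Troponin C over troponin T (Tnnt2 and Tnnt1) was 2.12, 2.14 and 2.02 in libraries labelled PKI, against 1.34, 1.46 and 1.45 in WT, and the groups did not overlap. Troponin I over troponin T was 1.34, 1.30 and 1.26 in libraries labelled PKI, against 1.40, 1.67 and 1.65 in WT, again without overlap (exact permutation p = 0.1 for both log2 ratios). WT replicate 1 stood nearest to the libraries labelled PKI in the last ratio. As shares of all troponin FPKM, troponin C made up 47.6% ± 0.577 in libraries labelled PKI and 35.5% ± 0.228 in WT. The share of troponin I was 29.6% ± 0.409 in libraries labelled PKI and 39.4% ± 1.64 in WT, and that of troponin T was 22.8% ± 0.501 in libraries labelled PKI and 25.1% ± 1.41 in WT (SD, n = 3 each). The levels of the ratios and shares, and the size of the differences in shares, depend on the transcript lengths the authors used.

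**Figure D3:**
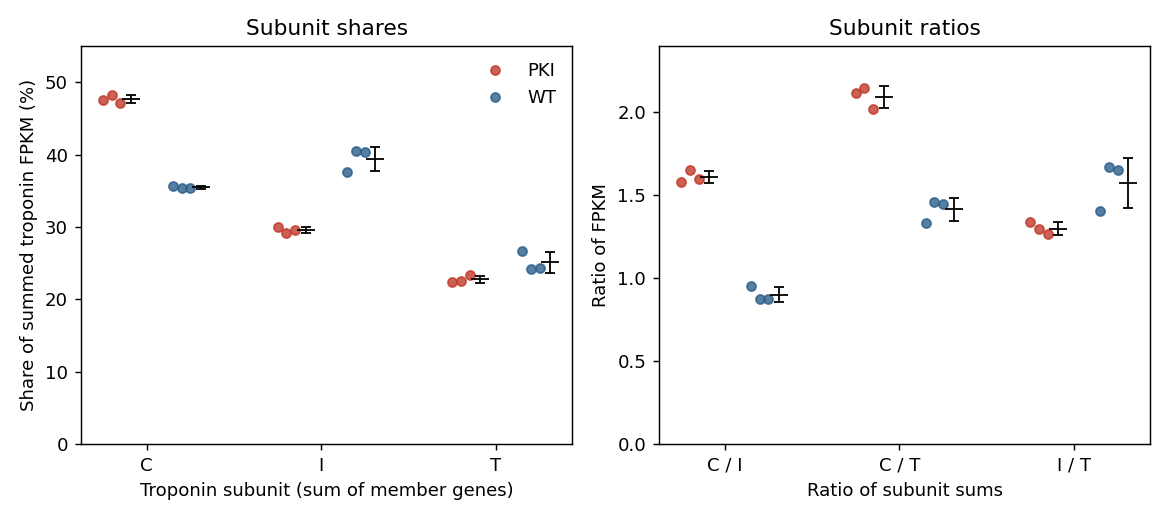
Left, FPKM of troponin C, I and T as percent of their sum; right, ratios between the subunit sums. Points are libraries, labelled PKI (red, left of each pair) and WT (blue, right), and bars are mean ± SD (n = 3). The C to I ratio is 1.58 to 1.65 in libraries labelled PKI and 0.874 to 0.952 in WT.

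The slow skeletal isoforms were minor beside the cardiac ones in both groups. Tnni1 (ENSMUSG00000026418, chromosome 1: 135779434 to 135810989, plus strand) was at 0.0680, 0.301 and 0.220 FPKM in libraries labelled PKI, against 0.0230, 0.184 and 0.0804 FPKM in WT. The groups overlapped, and at this depth the values correspond to roughly 0.575 to 6.99 fragments per library, so no difference was detectable. It fell below the level for testing, and when every gene above 0 was tested its log2 change was 0.12 (95% interval −0.09 to 0.34, adjusted p = 0.438). Its share of troponin I was 0.0230% ± 0.0143 in libraries labelled PKI and 0.00894% ± 0.00746 in WT (SD, n = 3 each; exact permutation p = 0.2).

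Tnnt1 (ENSMUSG00000064179, chromosome 7: 4504570 to 4516382, minus strand), the neighbour of Tnni3, was at 2.68, 3.28 and 2.53 FPKM in libraries labelled PKI, against 3.34, 3.43 and 2.60 FPKM in WT. The groups overlapped (log2 −0.11, 95% interval −0.37 to 0.16, adjusted p = 0.472). Its share of troponin T was 0.426% ± 0.0726 in libraries labelled PKI and 0.467% ± 0.0660 in WT (SD, n = 3 each; exact permutation p = 0.6). The fast skeletal genes, which are no members, were also near the bottom of the range: 0 of 3 reached the level for testing. Tnnc2 was at 0 in 1 library of each group, and Tnni2 was at 0.434 FPKM or less. Tnnt3, fast skeletal troponin T, was at 0.307, 0.262 and 0.385 FPKM in libraries labelled PKI and at 0.0859, 0 and 0.0622 FPKM in WT, without overlap. When every gene above 0 was tested it was called higher (limma, log2 0.33, adjusted p = 0.0158), as were 11.1% of the genes in that fit. Its values were near 0, where depth limits the comparison.

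Among the tropomyosins, Tpm1 (ENSMUSG00000032366, chromosome 9: 67022590 to 67049406, minus strand) had 814, 843 and 830 FPKM in libraries labelled PKI, against 814, 783 and 755 FPKM in WT. The lowest library labelled PKI and the highest WT library differed by less than 1 FPKM. The log2 change of 0.08 (95% interval −0.03 to 0.19, adjusted p = 0.188) did not pass as deposited, turned to −0.19 after median-of-ratios scaling (adjusted p = 0.0292) and to −0.13 when scaled to the total without mitochondrial transcripts (adjusted p = 0.115). Its direction thus depended on the scaling.

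Tpm4 (ENSMUSG00000031799, chromosome 8: 72134975 to 72153142, plus strand), the tropomyosin of non-muscle cells and the next most abundant, had 32.4, 32.2 and 34.8 FPKM in libraries labelled PKI, against 26.5, 22.6 and 21.3 FPKM in WT. The groups did not overlap, and it was 1.41-fold higher (log2 0.49, SE 0.09, adjusted p = 0.00724). Tpm4 overlaps the oppositely oriented genes Gm26586, at 0.0425 FPKM or less, and Gm16091. The latter was at 0.560 to 0.860 FPKM in libraries labelled PKI and at 0.236 FPKM or less in WT. Tpm3 (ENSMUSG00000027940, chromosome 3: 90072649 to 90100902, plus strand) had 4.78, 5.23 and 4.67 FPKM in libraries labelled PKI, against 3.65, 3.30 and 3.14 FPKM in WT. It too was higher without overlap, 1.45-fold (log2 0.43, SE 0.08, adjusted p = 0.00642). Its retrogene copy Tpm3-rs7 was at 1.18, 1.45 and 0.753 FPKM in libraries labelled PKI and 0.716, 0.628 and 0.645 FPKM in WT, and how reads were divided between the gene and its copy is unknown. After scaling neither call was made, with log2 changes of 0.22 for Tpm4 (adjusted p = 0.129) and 0.21 for Tpm3 (adjusted p = 0.0878).

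Tpm2 (ENSMUSG00000028464, chromosome 4: 43514711 to 43523765, minus strand), the beta tropomyosin, had 5.25, 10.02 and 7.66 FPKM in libraries labelled PKI, against 4.93, 3.43 and 4.11 FPKM in WT. It varied more within the libraries labelled PKI than any other tested member, with an SD of 31.2% of the mean there and 18.2% in WT, and PKI replicate 1 lay close to WT replicate 1. It was 1.84-fold higher (log2 0.72, SE 0.21, adjusted p = 0.0318). The call was lost after scaling (log2 0.49, adjusted p = 0.153), with no filter on low values (adjusted p = 0.0958) and without PKI replicate 2 (0.0688), PKI replicate 3 (0.0815), WT replicate 2 (0.0901) or WT replicate 3 (0.0808).

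Shares within the tropomyosin sum are not moved by a single factor per library, although quantile normalisation, for which no shares were computed, can move them. Tpm1 made up 95.04%, 94.7% and 94.6% in libraries labelled PKI, against 95.9%, 96.4% and 96.4% in WT. Tpm4 made up 3.79% ± 0.173 in libraries labelled PKI and 2.88% ± 0.216 in WT. Tpm2 made up 0.871% ± 0.256 in libraries labelled PKI and 0.509% ± 0.0807 in WT, and Tpm3 0.559% ± 0.0277 in libraries labelled PKI and 0.413% ± 0.0159 in WT (SD, n = 3 each). For each of the 4 the groups did not overlap, and each exact permutation test gave p = 0.1, the smallest possible. Without PKI replicate 2 the difference in the Tpm2 share was 0.234 percentage points, against 0.361 with all libraries. The 4 shares add up to the whole and are not independent of one another. The sum of all 4 over the mean of the 3 troponin subunits was 0.861, 0.930 and 0.900 in libraries labelled PKI, against 0.968, 0.911 and 0.877 in WT, and the groups overlapped (exact permutation p = 0.6).

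**Figure D4:**
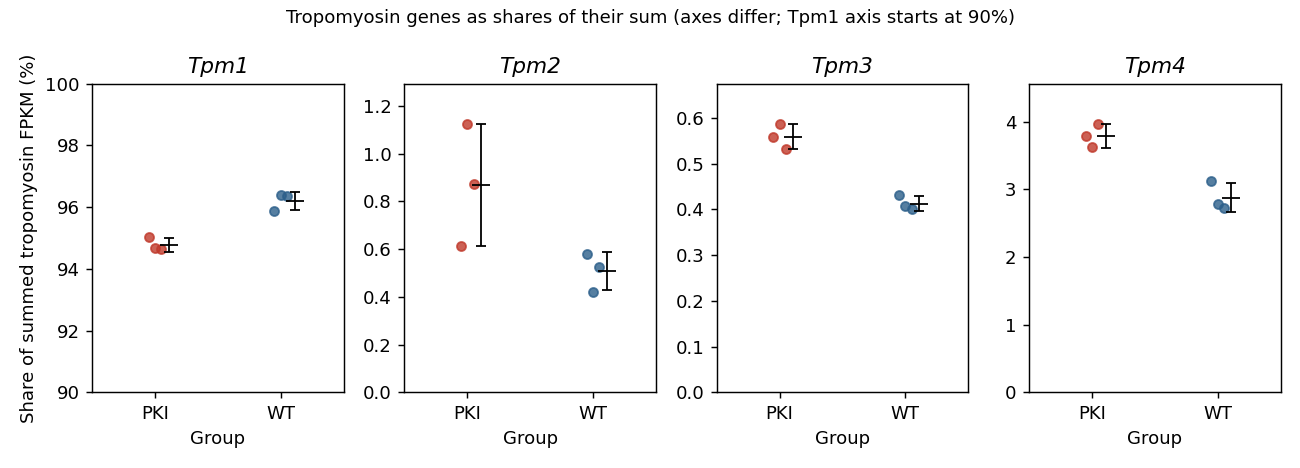
Each tropomyosin gene as percent of the summed FPKM of Tpm1 to Tpm4, libraries labelled PKI (red, left) and WT (blue, right), with mean ± SD (n = 3); the axes differ between panels and that of Tpm1 starts at 90%. The share of Tpm1 is lower and those of Tpm2, Tpm3 and Tpm4 are higher in every library labelled PKI than in any WT library.

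The genes whose profile over the 6 libraries lay nearest to that of Tpm2, by Euclidean distance of log2(FPKM + 1) centred on each gene's mean, were Csrp2 (distance 0.239), Myl9 (0.243) and Myh11 (0.270). Myh11 encodes the myosin heavy chain and Myl9 a regulatory light chain of smooth muscle myosin, and Csrp2 a LIM protein known from smooth muscle. Myh11 had 5.70, 12.6 and 9.02 FPKM in libraries labelled PKI, against 5.29, 4.81 and 5.18 FPKM in WT, so that PKI replicate 2 was highest and PKI replicate 1 close to WT, as for Tpm2. Csrp2 passed as deposited (adjusted p = 0.0197), whereas Myh11 (0.0539) and Myl9 (0.0550) did not. Of the smooth muscle and pericyte markers, Acta2, smooth muscle actin, had the same order among the libraries labelled PKI, at 48.2, 67.3 and 56.8 FPKM there, against 35.1, 21.6 and 21.8 FPKM in WT. Tagln and Cnn1 had that order too. Other markers did not: Notch3 was at 3.89, 3.41 and 3.47 FPKM in libraries labelled PKI, with Rgs5, Smtn, Kcnj8, Abcc9, Des and Lmod1 also in other orders. Kcnj8 and Abcc9 were called lower after scaling. Of 11 tested smooth muscle and pericyte markers 5 rose and 0 fell as deposited, with a median log2 change of 0.57 against 0.21 over all tested genes (2 higher and 2 lower after scaling). Shares over all tested genes were 36.4% higher and 2.96% lower as deposited, and 8.54% and 8.23% after scaling. The sum of the smooth muscle and pericyte markers, most of it Des, which cardiomyocytes also express, was 671 to 720 FPKM in libraries labelled PKI. In WT it was 383 to 438, with no marker at 0. In bulk tissue a change in the number of cells of a type and one in RNA per cell cannot be told apart, and the part of smooth muscle cells in the Tpm2 values was not tested.

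**Figure D5:**
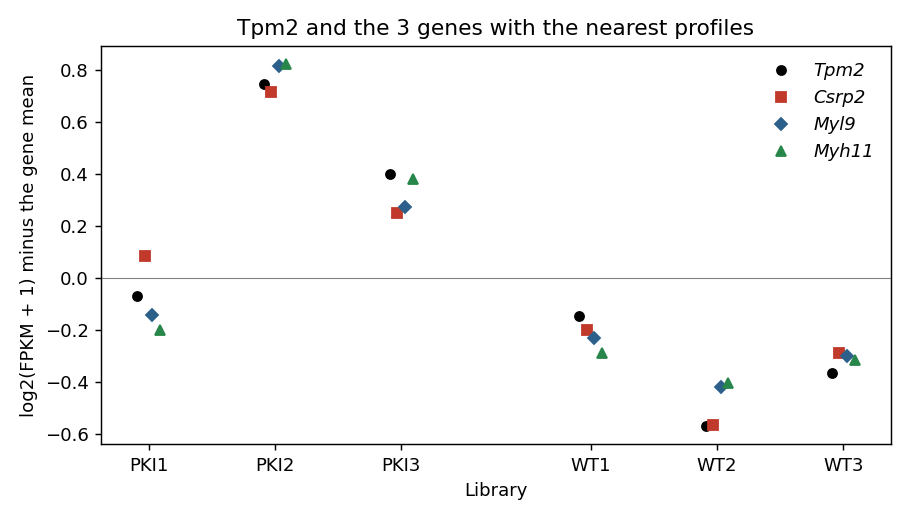
log2(FPKM + 1) of Tpm2 and of the 3 genes with the nearest profiles, each minus its mean over the 6 libraries, by library (PKI left, WT right). For all 4 genes PKI replicate 2 is the highest library, and PKI replicate 1 lies within 0.20 of the gene mean.

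Markers of other cell types are given beside the values of Tpm3 and Tpm4. Of 10 fibroblast markers 9 rose (9 after scaling; median log2 change 1.51), with a sum of 334 to 404 FPKM in libraries labelled PKI and 114 to 170 in WT, and of 9 tested macrophage markers 8 rose (7 after scaling; median 1.10), with a sum over the list of 213 to 231 FPKM in libraries labelled PKI and 71.1 to 110.2 in WT. No marker of either list was at 0. Over all tested genes 36.4% were called higher and 2.96% lower as deposited, and 8.54% and 8.23% after scaling, for this list and those below. Of 10 endothelial markers 3 rose, a share not above that of all tested genes (median 0.23, against 0.21). Their sum was 139.8 to 159 FPKM in libraries labelled PKI and 128 to 138 in WT, and after scaling 0 were higher and 1 lower (Kdr). Of 5 platelet and megakaryocyte markers 1 was tested and rose as deposited (Pf4, not called after scaling), and of 5 tested red blood cell markers 5 fell. Their part in the tropomyosin values was not tested. Of 10 skeletal muscle markers 2 were tested and 1 rose (Mybpc2), while 6 were at 0 in at least 1 library and Myh4 in all. Of 9 tested atrial markers 1 rose (Nppa) and 1 fell (Kcnj3), with a median log2 change of −0.56, and after scaling 1 was higher and 2 lower, with a median of −0.76. Their sum over the list, most of it Nppa, was 680.1 to 1516 FPKM in libraries labelled PKI and 288 to 505 in WT. Libraries stood apart within the group labelled PKI: Myl7, an atrial light chain, was at 6.61, 14.8 and 81.9 FPKM there, against 74.3, 40.5 and 91.3 FPKM in WT. Myl4 and Sln were likewise lowest in PKI replicates 1 and 2. The part of atrial tissue in the values of the 9 genes was not tested.

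Nearest to Tnni3 were Uqcrc1, a core subunit of respiratory complex III (distance 0.0605), Mtfp1, a mitochondrial inner membrane protein (0.0611), and Tmem94 (0.0690). Their log2 changes were −0.29, −0.26 and −0.28.

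The thin filament around these genes was described with a list of 23 partner genes, of which 21 were tested. The list covers actins, actin-binding and capping proteins, thick-filament partners and the kinase gene Tnni3k. As deposited 12 rose and 2 fell, with a median log2 change of 0.35, against 0.21 over all tested genes. After scaling 3 were higher and 3 lower, with a median of 0.08, against −0.0011. Among all tested genes 36.4% were called higher and 2.96% lower as deposited, and 8.54% and 8.23% after scaling. The skeletal actin gene Acta1 rose 6.13-fold, to 395, 456 and 449 FPKM in libraries labelled PKI, against 102, 52.1 and 57.7 FPKM in WT (log2 2.66, adjusted p = 0.000757). Actc1, cardiac actin, had 4789, 4280 and 4728 FPKM in libraries labelled PKI, against 3826, 3860 and 3386 FPKM in WT (log2 0.32, adjusted p = 0.0122; 0.04 after scaling, not called). The reads of these near-identical actins may have been divided uncertainly. Nrap, an actin-binding protein of myofibril assembly, rose 1.61-fold (limma adjusted p = 0.00212) and Cfl1 1.62-fold (0.00243). Mybpc3, cardiac myosin-binding protein C, rose 1.33-fold (0.00252). After scaling Nrap and Cfl1 were still called higher (0.0185 and 0.0189), and Mybpc3 was not.

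The pointed ends of thin filaments are capped by tropomodulins, which bind tropomyosin. Tmod1, the form of the heart, was at 74.5 ± 1.30 FPKM in libraries labelled PKI and 58.3 ± 2.37 in WT (adjusted p = 0.00463; log2 0.08 and not called after scaling), and the related Lmod2 was 1.27-fold higher (adjusted p = 0.0236; not called after scaling). Tmod4, the skeletal muscle form, fell to 6.61 ± 0.273 FPKM in libraries labelled PKI, against 8.91 ± 0.717 in WT (SD, n = 3 each; adjusted p = 0.0100; 0.00219 after scaling). Fhod3, a formin of cardiac thin filaments, fell 1.21-fold (adjusted p = 0.0106; 0.00159 after scaling). Tnni3k, a cardiac kinase that binds troponin I, was at 22.2 ± 0.459 FPKM in libraries labelled PKI and 25.2 ± 1.03 in WT and did not pass as deposited (log2 −0.18, adjusted p = 0.0517; −0.44 and adjusted p = 0.00476 after scaling).

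Genes that slow muscle shares with the heart went both ways. Of 8, all tested, 3 rose and 3 fell as deposited (median log2 −0.01, against 0.21 over all tested genes), and 1 was higher and 4 lower after scaling. The shares over all tested genes were 36.4% higher and 2.96% lower as deposited, and 8.54% and 8.23% after scaling. As deposited, the share called higher was thus near that of all genes, and the share called lower was above it. Myh7, the slow myosin heavy chain, was 2.24-fold higher (adjusted p = 0.00924; 0.0407 after scaling) and Casq2, the calcium buffer of the sarcoplasmic reticulum, 1.36-fold (adjusted p = 0.00157; not called after scaling). The light chain gene Myl2 fell by 0.17 on the log2 scale (adjusted p = 0.0396), and Pln, the inhibitor of the calcium pump, fell to 220 ± 5.53 FPKM in libraries labelled PKI, against 260 ± 9.76 in WT (SD, n = 3 each; adjusted p = 0.0127). Csrp3 was also called higher as deposited but not after scaling (log2 0.18, adjusted p = 0.424), and Atp2a2 was called lower in both. Myl3 was not called as deposited (log2 −0.02) and was called lower after scaling (−0.29, adjusted p = 0.0100), and Myh7b was called in neither.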

How the data were processed

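RNA from 6 libraries was built into Illumina TruSeq RNA libraries, per the labels' protocols. The deposited values are FPKM per gene, and both deposited gene tables hold identical values. The submitters' processing notes name CASAVA, Bowtie 0.12.2 and build mm9. What computed the FPKM, on which annotation and with which filters, is not given in the sources used here. Positions come from GENCODE M21 (GRCm38) by gene identifier, without conversion, and it lists 52403 of the 52550 identifiers.

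Depth was estimated from single-transcript genes of at least 500 bases and under 0.3 FPKM, whose values pile up at that of 1 fragment. Between 36.5% and 42.1% of these values were whole multiples within 0.1, so counts were not recovered.

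The genes averaging 1 FPKM or more were tested together on log2(FPKM + 1) with limma 3.58.1 (R 4.3.3), with a variance trend, two-sided and with Benjamini-Hochberg adjustment. Log2 changes on this scale understate those of low genes, and folds are ratios of mean FPKM. Shares and ratios were compared by exact two-sided permutation tests (scipy 1.17.1). The fit was tested on simulated data. The alternatives were smaller pseudocounts (0.1 and 0.5), no low-value filter or one at 5 FPKM, 3 other scalings, no variance trend, a replicate block, leaving out each library, and a pseudocount of 1 in the ratios. "After scaling" means division by median-of-ratios size factors.

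The named genes were the 9 members, Ppargc1a, genes of the partner lists (thin filament, fast skeletal troponin, slow muscle), and the 3 genes with the nearest profile to the member with the highest and the lowest log2 change. Lists of markers covered cardiomyocytes, smooth muscle and pericytes, fibroblasts, macrophages, endothelium, skeletal muscle, atria, platelets and red blood cells. The members and lists were chosen with earlier results of these data known.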

Additional observations from a re-analysis of the deposited data

How the results depend on the processing

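Under all 15 alternatives Tnnc1 was called higher (log2 0.29 to 0.57, adjusted p 0.000405 to 0.00568) and Tnni3 lower (log2 −0.55 to −0.25, adjusted p 0.00177 to 0.0364). The other counts depend on the scaling: median-of-ratios scaling, scaling to the non-mitochondrial total and quantile normalisation each left 1 member called higher. The first of these called 3 lower, the second 2 and the third 1. Of all tested genes 8.54%, 10.3% and 7.6% were called higher under these 3 scalings, and 8.23%, 6.09% and 7.69% lower. The share of members called higher was thus near that of all genes. Tpm1 turned to −0.19 and −0.13 under the first 2 scalings. Tnnt2 was called lower under both (log2 −0.27 and −0.21, limma adjusted p = 0.0140 and 0.0296) and not under quantile normalisation (−0.13). When single libraries were left out, without scaling, Tnnt2 lay between −0.024 and 0.036. Ppargc1a, which did not pass as deposited, was called lower under the 3 scalings (log2 −0.42, −0.36 and −0.42). Of 15 alternatives Tpm2 was called in 6 and Tpm4 in 12, and of 14 Tpm3 in 11. Tpm3 and Tnnt1 could not be fitted at a minimum mean of 5 FPKM. With a replicate block 3 members were called higher (Tpm2 was not, limma adjusted p = 0.0691) and 1 lower, against 26.5% and 2.26% of all tested genes. The labels do not pair the libraries, and same-numbered libraries deviated from their group means with correlations of −0.10, 0.00 and 0.05 over genes. The sign-flip test of paired ratios cannot go below 0.25. Leaving out single libraries moved the difference in the log2 ratio of troponin C to troponin I between 0.82 and 0.88. With a pseudocount of 1 in the ratios, the difference in the Tnni1 share was 0.0339 percentage points in place of 0.0140, since a pseudocount exceeds the Tnni1 values. The exact permutation test then gave p = 0.1, the smallest possible, in place of 0.2. Depth limits Tnni1 and the fast skeletal genes, and the depth estimate rests on GENCODE M21 transcript lengths.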
